A study of Arabidopsis thaliana with 6 samples.

Results

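Raffinose family sugar synthesis was followed across 6 RNA-seq libraries through 5 genes of the 33602 gene models counted. They are the galactinol synthases GOLS1 (AT2G47180), GOLS2 (AT1G56600) and GOLS3 (AT1G09350), the raffinose synthase RS5 (AT5G40390) and the stachyose synthase STS (AT4G01970). The members were chosen by gene model identifier and all 5 were found. The libraries hold wild type Arabidopsis total RNA, 1 for each of 10, 25, 50, 75 and 100 pg and 5 ng, with no treatment. The study describes them as dilutions of an RNA sample from whole cotyledons of embryos, whereas the labels give the tissue as seed at growth stage Boyes 6.30. The age of the plants is not given in the labels. The question of the dilution series was how little RNA still gives a usable transcriptome, and for this pathway it becomes which of its transcripts were counted at which amount.

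Raffinose family oligosaccharides are sucrose molecules carrying galactose units. Galactinol synthase joins the galactose of UDP-galactose to myo-inositol to give galactinol, raffinose synthase moves that galactose onto sucrose, and stachyose synthase adds a further galactose to raffinose. These sugars accumulate in maturing embryos, where they are associated with desiccation tolerance, and in leaves under cold, heat and drought. In Arabidopsis, GOLS1 and GOLS2 are known as genes induced by drought, salt and heat, GOLS3 as a gene induced by cold, RS5 as the raffinose synthase of stressed leaves, and RS5 and STS together as the makers of raffinose in seeds.

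Each amount has 1 library, so replicate error could not be estimated, and intervals given for a library are exact Poisson 95% intervals that cover counting error only. The libraries held between 22403342 and 51130296 read pairs assigned to genes, the largest being the 5 ng library. CPM is the number of read pairs of a gene scaled to a common library total. TMM-normalised CPM is CPM further divided by a library factor, which was 0.306 at 5 ng and between 1.07 and 1.41 at the smaller amounts. The 5 ng library stood apart from the rest. The 10 late maturation genes listed, such as the storage protein genes CRC (AT4G28520) and CRA1 (AT5G44120), took 21.7% of the pairs at 5 ng, against 0.00898% to 0.0151% in the other 5 libraries. It was also sequenced at an earlier date, so the step between 5 ng and the smaller amounts cannot be told apart from the date. Of the markers of other tissues, the 7 endosperm genes summed to 91.3 to 196.6 TMM-normalised CPM at 10 to 100 pg and to 5.63 at 5 ng. The 6 seed coat genes summed to 0.0857 to 9.44 at 10 to 100 pg and to 164.8 at 5 ng. The cotyledon markers were present in all libraries, with sums of 8261 to 11830 at 10 to 100 pg and 7290 at 5 ng. As a share of the pairs they took 1.14% to 1.35% at 10 to 100 pg and 0.223% at 5 ng. Of the endosperm genes, 3 were counted in every library, ZOU (AT1G49770), a transcription factor of endosperm breakdown, ALE1 (AT1G62340), a subtilisin-like protease, and MYB118 (AT3G27785), a regulator of endosperm maturation. ZOU had 3479, 1264, 1022, 1340 and 2922 pairs at 10, 25, 50, 75 and 100 pg and 34 at 5 ng. ALE1 had 1203, 1158, 2298, 1051 and 3055 pairs at 10, 25, 50, 75 and 100 pg and 2 at 5 ng, and MYB118 had 946, 1584, 151, 391 and 497 and, at 5 ng, 52. The endosperm genes MINI3 and FWA, outside the naming rule and chosen after their values were seen, were at 0 in all 6 libraries. Of the seed coat genes, TT10 (AT5G48100), a laccase of tannin browning, and STK (AT4G09960), a MADS-box gene, were counted only at 5 ng, with 2181 and 263 pairs. BAN (AT1G61720), an anthocyanidin reductase, had 45 pairs at 10 pg and 104 at 5 ng, and MUM2 (AT5G63800), a mucilage beta-galactosidase, 354, 9 and 32 pairs at 50, 75 and 100 pg and 28 at 5 ng, both with 0 elsewhere. The cotyledon marker LHCB1.3 (AT1G29930), a chlorophyll-binding protein gene, had between 84777 and 159512 pairs at 10 to 100 pg and 8382 at 5 ng. The part of these tissues in the results below was not tested. By the study's account all 6 libraries are dilutions of the same RNA, which would come from the same cells at every amount. In bulk RNA, the number of cells of a type and the RNA per cell cannot be told apart.

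The genes lie on 4 chromosomes in the TAIR10.1 annotation. GOLS1 occupies chr2:19368798-19370478 on the minus strand, GOLS2 chr1:21207537-21209635 and GOLS3 chr1:3019639-3021443 on the plus strand, each with 4 exons. RS5 occupies chr5:16161449-16165453 on the plus strand with 5 exons, and STS chr4:853922-857401 on the minus strand with 4. Pairs were counted over the exons of the representative transcript, including its untranslated ends, without use of strand. The sequences ahead of the 3 members that varied most between libraries are shown because the pathway is known to be driven by abscisic acid, cold, heat and seed maturation factors, each with a short binding motif. They are the 250 bases before the annotated start, from RefSeq TAIR10.1, read 5′ to 3′ along the gene's strand. Capitals mark the letters of ACGTG (the core of the abscisic acid response element), CACGTG (the G-box), CATGCA (the RY element of B3 factors such as ABI3 and FUS3), CCGAC (the core of the dehydration and cold response element) and GAANNTTC (a heat shock element core), searched on both strands. The lines give STS (chr4:857402-857651, minus strand), RS5 (chr5:16161199-16161448, plus strand) and GOLS1 (chr2:19370479-19370728, minus strand).
STS: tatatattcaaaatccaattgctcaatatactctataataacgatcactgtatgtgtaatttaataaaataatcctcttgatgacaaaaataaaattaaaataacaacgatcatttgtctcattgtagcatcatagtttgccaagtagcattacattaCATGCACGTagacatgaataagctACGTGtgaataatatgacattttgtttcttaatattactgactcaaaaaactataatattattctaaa
RS5: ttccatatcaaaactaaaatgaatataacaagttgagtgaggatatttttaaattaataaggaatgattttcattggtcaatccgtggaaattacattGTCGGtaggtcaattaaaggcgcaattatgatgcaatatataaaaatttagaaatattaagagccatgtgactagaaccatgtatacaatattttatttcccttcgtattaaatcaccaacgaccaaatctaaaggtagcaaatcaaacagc
GOLS1: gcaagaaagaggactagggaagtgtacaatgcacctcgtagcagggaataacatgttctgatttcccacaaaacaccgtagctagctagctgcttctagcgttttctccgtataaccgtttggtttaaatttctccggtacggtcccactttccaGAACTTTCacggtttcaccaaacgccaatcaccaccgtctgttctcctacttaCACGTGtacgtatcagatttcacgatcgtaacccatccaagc

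The STS window held CATGCA at 92 to 87 bases before the start, an ACGTG on the opposite strand at 88 to 84 that overlaps it, and an ACGTG at 68 to 64. The RS5 window held only CCGAC, on the opposite strand at 152 to 148 bases before the start. GOLS1 held CACGTG at 42 to 37, which contains ACGTG on both strands, and GAANNTTC at 95 to 88. The windows not printed held CCGAC and GAANNTTC for GOLS2, and CACGTG and CCGAC at 2 places for GOLS3. Of 27443 such windows in the annotation, 22.9% held ACGTG, 6.49% CACGTG, 8.43% CATGCA, 12.0% CCGAC and 9.55% GAANNTTC. A match describes letters in a window and does not show binding.

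No member was counted in every library. RS5 and STS, which act at neighbouring steps, were never counted together. RS5 was present in all 5 libraries of 10 to 100 pg and at 0 at 5 ng, STS was present only at 5 ng, and the 3 galactinol synthases were near or at 0 throughout, apart from GOLS1 at 50 pg. At 10, 25, 50, 75 and 100 pg and 5 ng, 2, 2, 3, 1, 2 and 3 of the 5 members had at least 1 read pair.

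**Figure D1:**
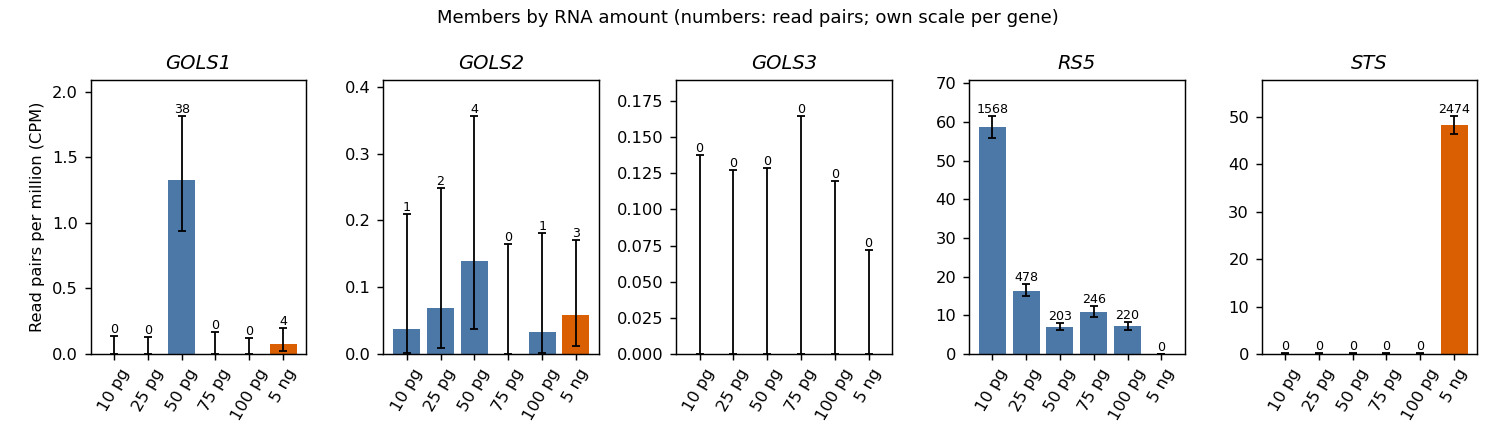
CPM, the read pairs scaled by library total, of the 5 genes in each library, from 10 pg to 5 ng, with exact Poisson 95% intervals for counting error and the number of read pairs above each bar. The 5 libraries of 10 to 100 pg are in blue and the 5 ng library in orange, and each gene has its own vertical scale. RS5 had 1568 pairs at 10 pg and 0 at 5 ng, and STS had 2474 pairs at 5 ng and 0 in the other 5 libraries.

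The galactinol synthases, which commit UDP-galactose to the pathway, gave the fewest reads. GOLS1 had 0, 0, 38, 0 and 0 pairs at 10, 25, 50, 75 and 100 pg and 4 pairs at 5 ng. It was thus high in 1 library and near or at 0 in the other 5. Its 38 pairs at 50 pg amount to 1.33 CPM (0.939 to 1.82), whereas a count of 0 (with a limit of 3 pairs) allowed between 0.0975 and 0.134 CPM in the other 4 smaller amounts. GOLS1 was thus at least 14.5-fold higher at 50 pg than at 100 pg on the TMM scale and with the same sequencing date. Of all genes with at least 10 pairs in either of these libraries, 8.97% were at least 4-fold higher at 50 pg and 14.7% lower. At 10 pg it was at least 9.53-fold lower than at 50 pg, as were, past 4-fold, 32.6% of genes. Reads of a gene confined to 1 of the 5 smaller amounts were found elsewhere too, as 79 genes had at least 38 pairs at 50 pg and 0 in the other 4, and 20, 24, 79 and 121 genes showed this at 10, 25, 75 and 100 pg. Against 5 ng, with its 4 pairs, GOLS1 at 50 pg was 3.90-fold higher on the TMM scale, with a counting interval of 0.49 to 3.91 in log2, and past 4-fold with library totals alone (log2 ratio 4.08).

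GOLS2 had 1, 2, 4, 0 and 1 pairs at 10, 25, 50, 75 and 100 pg and 3 pairs at 5 ng. These counts do not separate any amount from another, since the interval of the highest in CPM, 0.038 to 0.357 at 50 pg, overlaps those of the other libraries. GOLS3, the cold-induced gene, had 0 pairs in all 6 libraries, as did 10698 of the 33602 genes, GOLS3 included. With the limit of 3 pairs, a count of 0 allowed up to 0.0587 CPM at 5 ng and up to 0.134 CPM at 75 pg. These are the libraries with the lowest and highest limit.

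RS5, which makes raffinose from galactinol and sucrose, had 1568, 478, 203, 246 and 220 pairs at 10, 25, 50, 75 and 100 pg and 0 at 5 ng. In TMM-normalised CPM these are 54.8, 13.7, 5.34, 8.13, 5.05 and 0. The 10 pg library was the highest, 4.01-fold above the 25 pg library and 8.88-fold above the mean of the 50, 75 and 100 pg libraries, and the 5 ng library was the lowest. The study found its smallest amounts set apart from the rest, recommends a larger minimum and calls less RNA not fully quantitative. The libraries with the highest RS5 values, 10 and 25 pg, both lie under that minimum. The part of the low input in these values was not tested. RS5 made up 99.9% of the pairs of the 5 members at 10 pg.

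STS, which extends raffinose to stachyose, had 0 pairs at 10, 25, 50, 75 and 100 pg and 2474 at 5 ng. At 5 ng this is 48.4 CPM (46.5 to 50.3), or 158.3 TMM-normalised CPM. The 5 smaller amounts were all empty, with limits of 0.0975 to 0.134 CPM, and only the 5 ng library held the transcript.

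Per kilobase of gene model, on which levels of different genes can be compared, STS at 5 ng was the highest value among the 5 members, at 55.8 TMM-normalised CPM per kb. RS5 followed with 19.4, 4.82, 1.89, 2.87 and 1.79 TMM-normalised CPM per kb at 10, 25, 50, 75 and 100 pg. GOLS1 came next, with 0.737 at 50 pg and 0.189 at 5 ng, and the highest value of GOLS2 was 0.138, at 5 ng. RS5 was therefore first among the members within each of the 5 smaller amounts, above GOLS1, GOLS2 and GOLS3. The order of STS at 5 ng and RS5 at 10 pg depended on the scaling. With library totals alone RS5 at 10 pg had 58.7 CPM and STS at 5 ng 48.4 CPM, on models of 2829 and 2837 bases. The counting intervals of GOLS2 and GOLS3 in CPM overlapped in every library. Summed over the 5 members, TMM-normalised CPM was 54.8, 13.7, 6.44, 8.13 and 5.08 at 10, 25, 50, 75 and 100 pg and 158.7 at 5 ng. With library totals alone the 10 pg library had the highest sum. These sums were 58.8, 16.5, 8.55, 11.0 and 7.18 CPM at 10, 25, 50, 75 and 100 pg and 48.5 at 5 ng.

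How far reads can be assigned to 1 member depends on how alike the sequences are. The coding sequences of RS5 and STS had 56.5% identity over all alignment columns and 72.9% over aligned bases, and their longest common run was 19 bases. It is shown because it is far shorter than the reads of 100 bases, and it lies in 1 exon of RS5 at chr5:16162395-16162413 on the plus strand.
RS5 and STS, longest common run: tggtgcacttgggatgctt
Among the galactinol synthases, GOLS2 and GOLS3 were the closest members, with 80.8% identity over all columns and a longest common run of 26 bases. GOLS1 had 72.4% identity with GOLS2 and 71.3% with GOLS3. In the authors' processing, reads whose best and second-best alignments had equal scores were removed. Only GOLS1 among the members overlaps another protein-coding locus, AT2G47170 on the opposite strand, by 43 bases, over which reads without strand cannot be told apart.

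Set against the 5 ng library, the 100 pg library had less STS and more RS5 transcript. STS was at least 2297-fold lower at 100 pg than at 5 ng and RS5 at least 26.3-fold higher, both on the TMM scale and with the empty library set at 3 pairs. Of the 5 members, these are the 2 with at least 10 pairs in either library, 1 past 4-fold in each direction. Among all 18790 genes with that many pairs, 20.5% were at least 4-fold lower at 100 pg and 25.1% at least 4-fold higher. With library totals alone these shares were 10.1% and 57.8%, and the median log2 ratio of all genes was 2.48 in place of 0.27. On that scale STS was still lower at 100 pg (log2 ratio of at most -8.96) and RS5 higher (at least 6.93).

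The same was seen with every other smaller amount. STS was at least 1510-, 1848-, 2007- and 1597-fold lower at 10, 25, 50 and 75 pg than at 5 ng, and RS5 at least 285.4-, 71.1-, 27.8- and 42.4-fold higher. Of all genes with enough reads, 38.1%, 30.0%, 23.1% and 18.5% were at least 4-fold lower at these amounts than at 5 ng, and 22.4%, 22.5%, 23.9% and 24.6% higher. A ratio past 4-fold in the same direction at all 5 smaller amounts was found for 10.3% of 20087 genes on the lower side and 8.34% on the higher side. The full pattern was less frequent, since 33 of the 1053 genes with at least 2474 pairs at 5 ng had 0 pairs in all 5 smaller amounts, as STS did. Of the 7193 genes with at least 7.09 CPM, the lowest of RS5, in each smaller amount, 312 had 0 pairs at 5 ng. These comparisons share the 5 ng library, and no test was possible between single libraries.

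Within the 5 smaller amounts, which share a sequencing date, only RS5 had enough reads at 10 or 100 pg to be compared. It was 10.8-fold higher at 10 pg, with 54.8 TMM-normalised CPM, than at 100 pg, with 5.05 (log2 ratio 3.44, counting interval 3.23 to 3.65). The smaller of these amounts is among those that the study calls not fully quantitative. Of 17380 genes, 9.65% were at least 4-fold higher at 10 pg and 35.2% at least 4-fold lower. Among the 4406 genes with 1 to 10 CPM at 100 pg, as RS5 had, 16.1% were at least 4-fold higher at 10 pg. With library totals alone the log2 ratio of RS5 was 3.04, and 6.82% of genes were higher and 38.5% lower. The median log2 ratio of all genes was -0.49, or -0.89 with library totals alone. RS5 was also 6.74-fold higher at 10 pg than at 75 pg, where 7.89% of genes were higher past 4-fold and 36.8% lower, and 10.3-fold higher than at 50 pg, where 10.9% were higher.

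A slope against log2 RNA amount, was fitted over the 5 libraries of 10 to 100 pg, with 3 residual degrees of freedom. RS5 changed by -0.97 ± 0.32 (SE) in log2 for each 2-fold more RNA, which did not pass edgeR's quasi-likelihood test after adjustment over 17366 genes (edgeR adjusted p = 0.312). By this test 0.00% of the genes passed after adjustment and 13.8% before it, and 735 genes had a p at or under that of RS5. DESeq2 called 1791 of 16355 genes, or 11.0%, RS5 among them with a slope of -1.0 and a DESeq2 adjusted p of 0.0302. The slope rested on the 10 pg library, without which it was -0.59 with an edgeR adjusted p of 0.810. Over all alternatives the adjusted p ran between 0.0302 and 0.810, and over those that leave out 1 library in edgeR between 0.0747 and 0.810. With the 5 ng library included, which has another sequencing date, edgeR called 721 genes, or 4.05%, RS5 among them with a slope of -1.27 and an edgeR adjusted p of 0.0359. The other 4 members had too few reads to enter the fit from 10 to 100 pg.

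**Figure D2:**
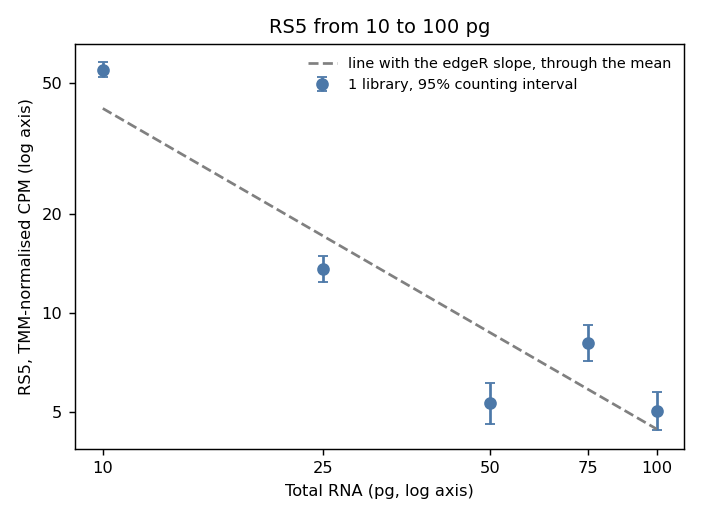
TMM-normalised CPM of RS5 against the amount of total RNA in the 5 libraries of 10 to 100 pg, both axes logarithmic, with 95% counting intervals. The dashed line has the edgeR slope of -0.97 in log2 for each 2-fold more RNA and passes through the mean of the points. The 10 pg library, at 54.8, lies above the line, and the values at 50, 75 and 100 pg are between 5.05 and 8.13.

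The genes whose levels over the 6 libraries were most like a member's were found by the Euclidean distance of log2(TMM-normalised CPM + 1) among 20087 genes. Nearest to RS5 were the D-type cyclin gene CYCD5;1 (AT4G37630, distance 0.779), the cytokinin response factor gene CRF5 (AT2G46310, 0.912) and ZW9 (AT1G58270, 0.994), a TRAF-like gene. CYCD5;1 had 1632, 708, 141, 249 and 161 pairs at 10, 25, 50, 75 and 100 pg and 0 at 5 ng. Nearest to STS were AT2G38380 of the peroxidase superfamily (0.002), AT4G18650, annotated as a transcription factor-like protein (0.009), and the cytochrome P450 gene CYP702A6 (AT4G15396, 0.023), with 2478, 2489 and 2435 pairs at 5 ng and 0 elsewhere. Nearest to GOLS1 were AT4G03710 (0.135), RGF5 (AT5G51451, 0.158) and AT1G55980 (0.16), with 45, 42 and 39 pairs at 50 pg. GOLS2 (nearest AT1G57840, AT3G28790 and AT1G48400) and GOLS3 (nearest ECS1, AT2G04720 and PHT1;4) have too few or no reads for a pattern, and their nearest genes are only other genes with few reads.

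The other genes named as galactinol synthases were uneven too. Of the 7 other genes, 4 had reads. GOLS5 (AT5G23790), whose coding sequence has 89.0% identity with that of GOLS6, a gene at 0 in all 6 libraries, had 0 pairs at 10, 25, 50, 75 and 100 pg and 170 at 5 ng, so that it was at least 157.8-fold lower at 100 pg than at 5 ng on the TMM scale, like STS. GOLS8 (AT3G28340), which RefSeq also names GATL10, a galacturonosyltransferase-like gene, and which overlaps AT3G28335 on the opposite strand by 69 bases, had 79, 59, 731, 277 and 889 pairs at 10, 25, 50, 75 and 100 pg and 0 at 5 ng. It was thus at least 106.4-fold higher at 100 pg than at 5 ng, but 7.40-fold lower at 10 pg than at 100 pg, where RS5 was higher. Per kilobase of gene model GOLS8 had 1.72, 1.05, 12.0, 5.70 and 12.7 TMM-normalised CPM per kb at 10, 25, 50, 75 and 100 pg, which is below RS5 at 10 and 25 pg and above it at 50, 75 and 100 pg. GOLS7 (AT1G60450) had 19 pairs at 75 pg and 3 at 100 pg, and GOLS9 (AT3G06260) had 1 pair at 75 pg. Of the genes with a galactinol synthase name, GOLS8 was therefore the only one with at least 10 pairs in each of the 5 smaller amounts. It has 1 exon, where GOLS1, GOLS2 and GOLS3 have 4. Whether its product makes galactinol was not tested.

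Relatives of raffinose synthase were counted at most amounts, in contrast to STS. SIP1 (AT1G55740), a seed imbibition protein, had 5, 593, 1614, 298 and 1463 pairs at 10, 25, 50, 75 and 100 pg and 146 at 5 ng. RefSeq gives the symbol SIP1 to the locus of RS5 as well, and the values here are those of AT1G55740. SIP2 (AT3G57520), known as an alpha-galactosidase specific for raffinose, had 2133, 33, 1282, 1155 and 1834 pairs at 10, 25, 50, 75 and 100 pg and 201 at 5 ng. The 25 pg library was low for SIP2 and the 10 pg library for SIP1. DIN10 (AT5G20250), a raffinose synthase-like gene induced in the dark, which overlaps AT5G20260 on the opposite strand by 82 bases, had 1, 0, 98, 151 and 656 pairs at 10, 25, 50, 75 and 100 pg and 153 at 5 ng. At 100 pg against 5 ng none of the 3 was past 4-fold with TMM factors, with a median log2 ratio of 1.71, and all 3 were higher with library totals alone. Of all genes, 57.8% were higher on that scale. Between 10 and 100 pg, SIP1 and DIN10 were lower at 10 pg and SIP2 was within 4-fold, where RS5 was higher. Among all genes 35.2% were at least 4-fold lower at 10 pg and 9.65% higher. In the slope test none of the 3 passed after adjustment in edgeR (lowest edgeR adjusted p = 0.323, for DIN10, with a slope of 2.80 in log2 for each 2-fold more RNA), while 1 passed before it and DESeq2 called SIP1 and DIN10.

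Of the alpha-galactosidases, which remove galactose from these sugars, AGAL3 (AT3G56310) had the most read pairs. It had 404, 2235, 2249, 876 and 1949 pairs at 10, 25, 50, 75 and 100 pg and 3101 at 5 ng. At 100 pg it was 4.43-fold lower than at 5 ng with TMM factors, a call that was lost with library totals alone, where its log2 ratio was 0.06. AGAL1 (AT5G08380) had 4, 374, 171, 282 and 335 pairs at 10, 25, 50, 75 and 100 pg and 242 at 5 ng, and AGAL2 (AT5G08370) had 40 pairs at 5 ng and 0 elsewhere. AGAL2 was at least 37.1-fold lower at 100 pg than at 5 ng, on both scales past 4-fold.

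The supply of myo-inositol, the galactose acceptor, had most of its reads in MIPS1 (AT4G39800), a myo-inositol phosphate synthase. MIPS1 had 183.1, 223.2, 212.3, 196.7 and 263.6 TMM-normalised CPM at 10, 25, 50, 75 and 100 pg and 3375 at 5 ng. Across the 5 smaller amounts it stayed within a narrow band where RS5 did not, and at 100 pg it was 12.8-fold lower than at 5 ng. Its isoform MIPS2 (AT2G22240) had 72.1, 61.6, 82.1, 13.9 and 34.8 at 10, 25, 50, 75 and 100 pg and 517.9 at 5 ng. With library totals alone both were lower by less than 4-fold, with log2 ratios of -1.47 for MIPS1 and -1.68 for MIPS2. Of the 6 genes of this group, 3 were at least 4-fold lower at 100 pg and 2 higher with TMM factors, and with library totals alone 0 were lower and 3 higher. The shares of all genes were 20.5% lower and 25.1% higher, and 10.1% and 57.8% with library totals alone. The isoform MIPS3 (AT5G10170) and the phosphatase-like gene IMPL2 (AT4G39120), chosen after their values were seen, were higher at 100 pg on both scales. MIPS3 had 594 pairs at 100 pg and 0 at 5 ng, and IMPL2 had 1941 at 100 pg and 21 at 5 ng. All 6 were within 4-fold at 10 pg against 100 pg, where 35.2% of all genes were lower and 9.65% higher.

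For UDP-galactose, the galactose donor, the pyrophosphorylase gene UGP1 (AT3G03250) varied little with TMM factors, with 83.1, 74.5, 53.3, 93.1 and 75.1 TMM-normalised CPM at 10, 25, 50, 75 and 100 pg and 79.2 at 5 ng. UGP2 (AT5G17310) had 32.1, 25.6, 13.0, 30.9 and 28.6 at 10, 25, 50, 75 and 100 pg and 357.1 at 5 ng, so that it was 12.5-fold lower at 100 pg than at 5 ng. With library totals alone the log2 ratio of UGP2 was -1.43, within 4-fold, and UGP1 was higher at 100 pg, with 2.13. Of the 9 genes of this group, 4 were lower and 1 higher at 100 pg than at 5 ng with TMM factors, and 1 lower and 4 higher with library totals alone. Among all genes 20.5% were lower and 25.1% higher, and 10.1% and 57.8% with library totals alone. At 10 pg against 100 pg, where 35.2% of all genes were lower and 9.65% higher, 7 had enough reads. Of these 7, 2 were lower and 1 higher. One of the lower genes was USP (AT5G52560), a UDP-sugar pyrophosphorylase, with 181 pairs at 10 pg and 1263 at 100 pg. The other lower gene and the higher gene, chosen after their values were seen, were the epimerase genes UGE2 (AT4G23920), with 7 pairs at 10 pg and 495 at 100 pg, and UGE4 (AT1G64440), with 608 pairs at 10 pg and 48 at 100 pg.

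Sucrose, which accepts the galactose, is made by sucrose phosphate synthases and phosphatases. SPS1F (AT5G20280) had 32.7, 13.6, 13.9, 25.5 and 23.5 TMM-normalised CPM at 10, 25, 50, 75 and 100 pg and 62.1 at 5 ng. SPP2 (AT2G35840), the phosphatase, had 10, 599, 90, 258 and 730 pairs at 10, 25, 50, 75 and 100 pg and 667 at 5 ng, with the 10 pg library the lowest. Of the 5 genes of this group with enough reads, 2 were lower at 100 pg than at 5 ng and 0 higher, and with library totals alone 1 was lower and 1 higher. Among all genes 20.5% were lower and 25.1% higher, and 10.1% and 57.8% with library totals alone. Of 4 genes at 10 pg against 100 pg, where 35.2% of all genes were lower, 3 were lower, SPP2 among them.

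**Figure D3:**
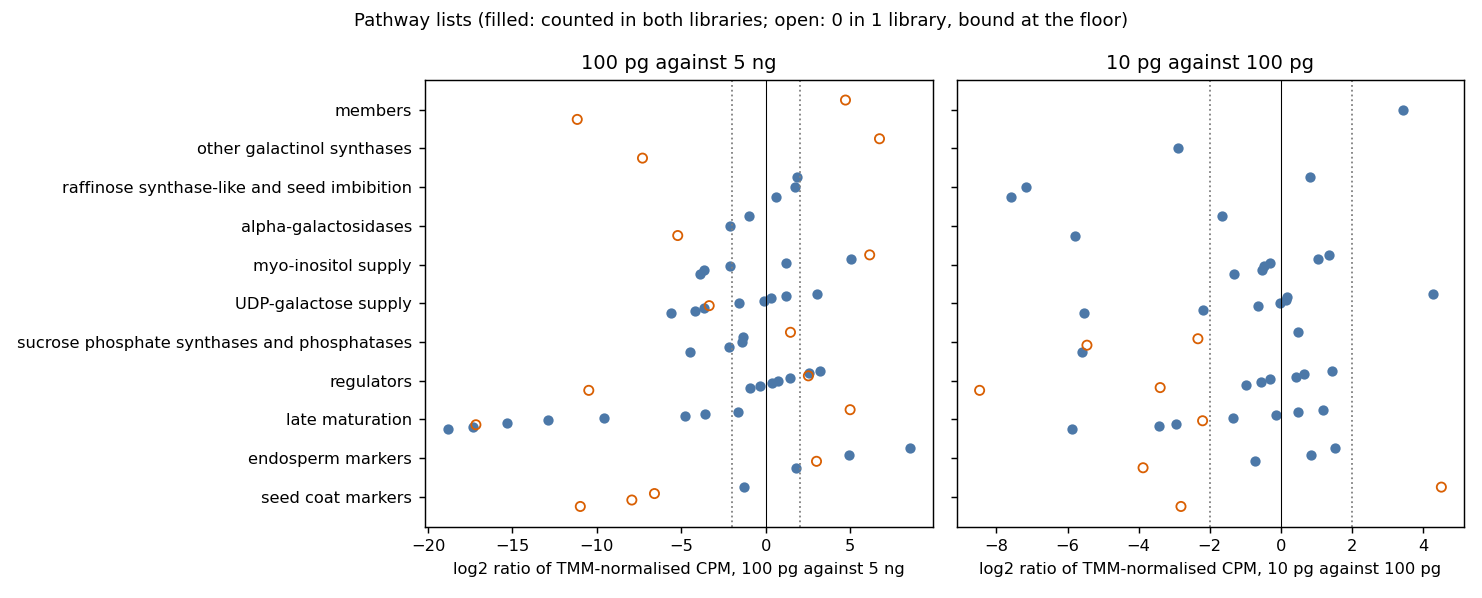
Log2 ratio of TMM-normalised CPM for each pathway, regulator and marker gene with at least 10 read pairs in either library, at 100 pg against 5 ng and at 10 pg against 100 pg, with 1 row for each gene group. Open points have 0 pairs in 1 of the libraries and show the bound with 3 pairs, and dotted lines mark 4-fold. In the row of the 5 members, STS lies at -11.2 and RS5 at 4.72 in the left panel, and RS5 at 3.44 in the right one.

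Among transcription factors known to act on these genes, HSFA2 (AT2G26150), a heat shock factor that activates GOLS1 in Arabidopsis leaves, had the pattern of STS. It had 0 pairs at 10, 25, 50, 75 and 100 pg and 1541 at 5 ng, while GOLS1 itself had 4 pairs at 5 ng. The seed maturation regulator ABI3 (AT3G24650) had 36.4, 35.3, 38.1, 17.5 and 44.9 TMM-normalised CPM at 10, 25, 50, 75 and 100 pg and 87.5 at 5 ng. FUS3 (AT3G26790), a B3 factor of the same network, had 141.2, 142.5, 161.6, 131.8 and 90.6 at 10, 25, 50, 75 and 100 pg and 69.1 at 5 ng. Both B3 factors were thus counted in every library. Whether any of these factors acted on the members here was not tested. Of the 9 regulators with enough reads, 1 was lower and 3 higher at 100 pg than at 5 ng with TMM factors, and 1 lower and 6 higher with library totals alone. The shares of all genes were 20.5% lower and 25.1% higher, and 10.1% and 57.8% with library totals alone. Of 8 regulators at 10 pg against 100 pg, where 35.2% of all genes were lower, 2 were lower. One of these, DREB2A (AT5G05410), a drought and heat factor chosen after its values were seen, had 0, 0, 148, 117 and 1620 pairs at 10, 25, 50, 75 and 100 pg and 358 at 5 ng.

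Late maturation genes, which are expressed in the same phase of seed development as raffinose synthesis, were mostly lower at 100 pg than at 5 ng, as STS was. Unlike STS, 9 of the 10 had at least 1 pair at 100 pg. Of 10, 8 were at least 4-fold lower at 100 pg than at 5 ng and 1 higher, with a median log2 ratio of -11.3, and with library totals alone 7 were lower and 1 higher. EM1 (AT3G51810), a late embryogenesis abundant protein gene, had 1323, 1237, 1685, 1015 and 1436 pairs at 10, 25, 50, 75 and 100 pg and 6136 at 5 ng. ECP63 (AT2G36640), of the same kind of protein, had 73, 1362, 235, 339 and 1200 pairs at 10, 25, 50, 75 and 100 pg and 1371 at 5 ng. At 100 pg against 5 ng its log2 ratio was -1.67, within 4-fold, and 0.54 with library totals alone. The higher gene, EM6 (AT2G40170), chosen after its values were seen, had 266 pairs at 100 pg and 0 at 5 ng. Of the seed coat markers with enough reads, 3 of 4 were lower at 100 pg on both scales, as STS was. Of the endosperm markers, 3 of 4 were higher with TMM factors and 4 with library totals alone, as RS5 was. The part of these tissues in the values of STS and RS5 was not tested. Of the 6 cotyledon markers, 1 was higher at 100 pg with TMM factors and 4 with library totals alone. Among all genes 20.5% were lower and 25.1% higher at 100 pg, and 10.1% and 57.8% with library totals alone. RS5 was also higher at 10 pg than at 50, 75 and 100 pg, and markers of other tissues were among the genes higher there. The shares of all genes at least 4-fold higher at 10 pg were 10.9%, 7.89% and 9.65%. Against 50 pg, 2 of the 3 endosperm markers with enough reads were higher at 10 pg, MYB118 by 8.33-fold and ZOU by 4.53-fold, the call of ZOU being lost with library totals alone. Against 75 and 100 pg, 0 of 4 endosperm markers were higher past 4-fold and 1 lower. MYB118 was 2.56-fold and 2.90-fold and ZOU 2.75-fold and 1.81-fold higher at 10 pg. The lower marker, AGL62 (AT5G60440), named after its values were seen, had 0 pairs at 10 pg and 55 and 67 at 75 and 100 pg. It was at least 17.3- and 14.7-fold lower at 10 pg. ALE1 was 1.44-fold lower at 10 pg than at 50 pg, 1.21-fold higher than at 75 pg and 1.67-fold lower than at 100 pg. The seed coat marker BAN, with 45 pairs at 10 pg and 0 at 50, 75 and 100 pg, was at least 19.9-, 15.9- and 22.8-fold higher at 10 pg. The seed coat marker MUM2 went the other way, with 0 pairs at 10 pg and 354 and 32 at 50 and 100 pg. It was at least 88.8- and 7.01-fold lower at 10 pg. By the study's account these libraries are dilutions of the same RNA, and the part of these tissues in the higher RS5 value at 10 pg was not tested.

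Of the 74 list entries beyond the members, 49 entered the edgeR slope test, of which 0 passed after adjustment and 5 before it. DESeq2 called 4 of them, SIP1, DIN10, DREB2A and the cotyledon marker RBCS1A, in a count chosen after the values were seen.

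**Figure D4:**
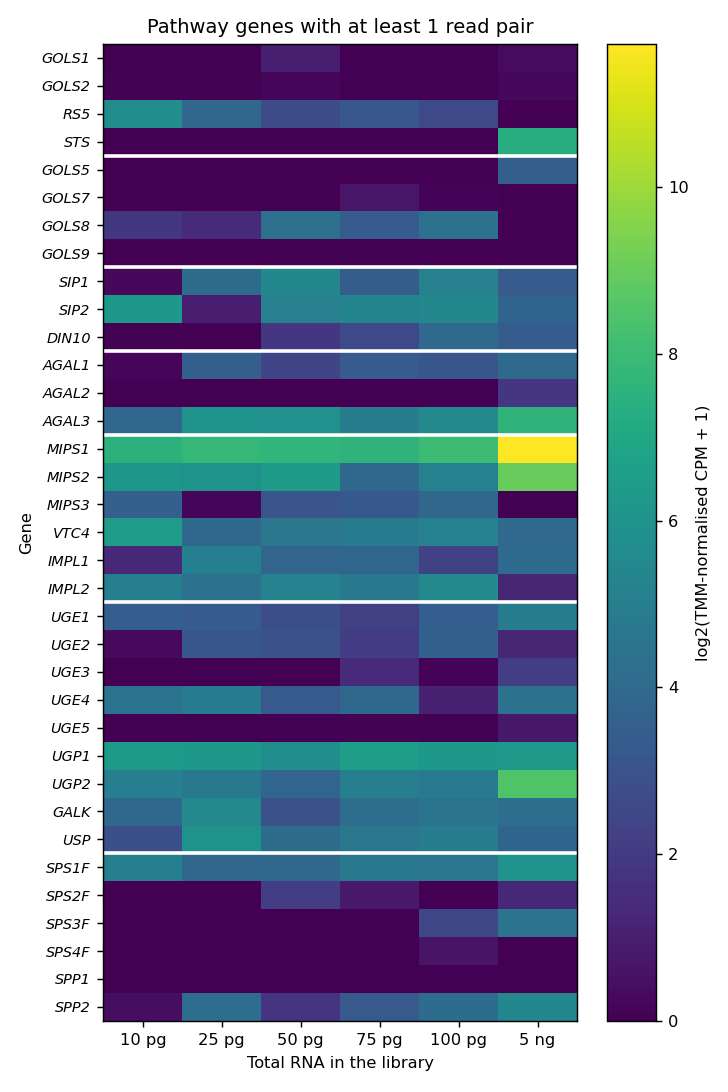
Log2(TMM-normalised CPM + 1) of the pathway genes with at least 1 read pair, 1 row for each gene and 1 column for each library from 10 pg to 5 ng. White lines part the groups, from top to bottom the members, other galactinol synthases, raffinose synthase-like genes, alpha-galactosidases, myo-inositol supply, UDP-galactose supply and sucrose phosphate genes. RS5 is at 0 only at 5 ng, and STS and GOLS5 are above 0 only at 5 ng, with 158.3 and 10.9 TMM-normalised CPM. MIPS1 is the brightest gene on this scale, which is not per length, with 3375 TMM-normalised CPM at 5 ng.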

How the data were processed

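The SMART-Seq v4 kit, used for all 6 libraries, starts cDNA synthesis at poly(A) tails, amplifies by PCR and keeps no strand. After trimming and removal of ribosomal reads, the authors aligned reads to representative TAIR10 gene models with Bowtie2 in its local setting. The deposited values are raw counts of read pairs with both reads on 1 gene, with single-read counts and model lengths beside them. TopHat2 is also named in the submitters' processing notes. The date correction of the study needs a first run of the 100 pg library, not analysed here, and was not repeated.

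CPM and TMM factors were computed with edgeR 4.0.16 in R 4.3.3. Ratios between libraries used TMM-normalised CPM, counts under 3 set to 3, genes with at least 10 pairs in either library, and a threshold of 4-fold. The slope on log2 RNA amount was fitted by edgeR's quasi-likelihood test over all genes that passed filterByExpr with a minimum of 10, with Benjamini-Hochberg adjusted p under 0.05. Its p-values measure only how single libraries scatter. DESeq2 1.42.0, Python 3.11.15, NumPy 2.4.6, pandas 2.3.3, SciPy 1.17.1, matplotlib 3.10.9 and Biopython 1.88 (alignment of coding sequences) were also used. Sequences and coordinates are those of RefSeq TAIR10.1, which holds 97.7% of the gene identifiers. 

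The members and the 11 other gene lists were chosen with earlier results of these data known, and 2 further lists (phytate and inositol oxygenase genes) after these values were seen. For 76 of the 79 list entries the symbol is one that RefSeq gives the locus. Named are all members, per list the 2 genes of highest CPM at 5 ng and the 2 of highest mean CPM at 10 to 100 pg, all genes of lists with fewer than 5 genes with reads, and the 3 genes nearest each member. Alternatives concerned scaling, fold threshold, pseudocount, single reads, the amounts compared, count minimum, thinning, tool, filter and libraries.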

Additional observations from a re-analysis of the deposited data

How the results depend on the processing

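No paired analysis was possible because each amount has 1 library, so that no comparison has more than 1 pair. The number of members past 4-fold at 100 pg against 5 ng was 2 under every alternative tried. At 10 pg against 100 pg it was 1, and 2 with 50 pg as the larger amount, where GOLS1 entered with its 38 pairs. The slope test called 0 genes in edgeR, also without any 1 library, without a filter and on single reads (an alternative chosen after seeing the data), but 1791 with DESeq2 and 721 with the 5 ng library included. RS5 was among these, with slopes of -1.0 and -1.27 and adjusted p of 0.0302 and 0.0359, and its edgeR slope without 1 library ran between -1.06 and -0.59. The cause was not tested. The log2 ratios of RS5 and STS kept their sign: at 100 pg against 5 ng RS5 ran between 2.60 and 6.93 and STS between -12.3 and -7.32, and at 10 pg against 100 pg RS5 ran between 2.75 and 3.50. No member was counted in every library at a minimum of 1 pair. A minimum of 10 pairs or thinning to the smallest total could not change this, since both only remove counts. GOLS1 and GOLS2 did not keep theirs where both counts were under 10 pairs: for GOLS1 at 100 pg against 5 ng, with 0 and 4 pairs, the ratio was -1.89 with TMM factors and 0.32 with library totals, and for GOLS2 at 50 pg against 5 ng, with 4 and 3 pairs, -0.87 and 1.25. Depth limits what can be said of GOLS2 and GOLS3, whose counts lie at or near the floor of 3 pairs.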

Other observations

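Beside the raffinose pathway, myo-inositol feeds phytate, the phosphorus store of seeds, and is broken down by myo-inositol oxygenases. Both groups of genes were added after the values had been seen. MIOX1 (AT1G14520) and MIOX5 (AT5G56640), 2 of the 4 oxygenase genes, had 0 pairs at 10, 25, 50, 75 and 100 pg and 677 and 118 pairs at 5 ng, the pattern of STS. On the TMM scale MIOX1 was at least 628.5-fold lower at 100 pg than at 5 ng and MIOX5 at least 109.6-fold lower. MIOX2 (AT2G19800) had 1 pair at 100 pg and 5 at 5 ng, and MIOX4 (AT4G26260) had none.

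All 9 phytate genes had at least 1 pair in every library, but some of them, such as MIK below, varied widely between amounts. ABCC5 (AT1G04120), the phytate transporter of the vacuole, had 43.8, 12.5, 29.7, 49.9 and 52.0 TMM-normalised CPM at 10, 25, 50, 75 and 100 pg and 240.4 at 5 ng. The inositol phosphate kinase gene ITPK1 (AT5G16760) had 26.1, 9.68, 43.0, 44.0 and 46.5 at 10, 25, 50, 75 and 100 pg and 46.5 at 5 ng. The myo-inositol kinase gene MIK (AT5G58730) had 5, 1, 406, 271 and 664 pairs at 10, 25, 50, 75 and 100 pg and 2217 at 5 ng, so that it was lowest at 10 and 25 pg, where RS5 was highest. At 100 pg against 5 ng, 3 of the 9 were at least 4-fold lower and 0 higher with TMM factors, with a median log2 ratio of -1.15, and 0 were lower and 2 higher with library totals alone. Among all genes 20.5% were lower and 25.1% higher, and 10.1% and 57.8% with library totals alone. At 10 pg against 100 pg, 3 were lower and 0 higher, against 35.2% and 9.65% of all genes. In the edgeR slope test 0 passed after adjustment (lowest edgeR adjusted p = 0.350) and 1 before it, and DESeq2 called 1, MIK.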
